A study of Mus musculus with 18 samples.

Results

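A set of 10 genes with large or near on-off differences between groups of tumor-infiltrating CD3+ T cells was followed. Of these, 8 came down to 3 reads or fewer in at least 1 sample, whereas Mrpl45 and Gm24265 were read in every sample and differed by degree. These were Sort1, Clgn, Utf1, Tff1, Mrpl45, 4933404O12Rik, Rufy3, Pdpn, Gm24265 and Gm24497, 10 of the 37236 genes in the table. They were selected on measured values, namely large or low-count differences between genotypes or in the interaction of genotype with treatment, so genotype and interaction values are given as description and nothing is read from their tests. Genes were tested where their average level across the 18 samples reached 10 normalized counts. This filter left 11992 genes, and 10 of the 10 selected genes passed it. Pdpn passed narrowly with a mean of 10.1 and only through its reads in a single group.

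RNA came from CD3+ T cells sorted from subcutaneous B16-OVA tumors, a mouse melanoma line carrying ovalbumin, 14 days after injection of 500000 cells into adult C57BL/6 mice. The 4 groups were wild type with the control antibody IgG2b (n = 3), Nr2f6-/- with IgG2b (n = 3), wild type with anti-PD-L1 (n = 6) and Nr2f6-/- with anti-PD-L1 (n = 6). Antibody (0.5 mg) was given from day 3, and all mice of all groups carried the tumor and received 1 of the antibodies. Nr2f6, which encodes a nuclear receptor of the COUP-TF family, is missing from every cell of the Nr2f6-/- animals, so the deletion is not confined to T cells. Replicates numbered 4 to 6, which exist only with anti-PD-L1, carry later library numbers and are called the second library set. No IgG2b sample belongs to it. The labels do not tie samples to single animals, so p-values measure the spread between these samples.

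Values are normalized counts, that is reads on a gene divided by 1 size factor for the sample. Between 12473391 and 18609482 reads fell on genes in each sample, and 3 reads, used here as the floor, correspond to 2.46 to 3.64 normalized counts. Nr2f6 itself was at 0 reads in 9 of 9 Nr2f6-/- samples, and between 20.2 and 201 in the 9 wild-type samples. The T-cell markers Cd3d, Cd3e, Cd3g, Cd4, Cd8a and Cd8b1 summed to 40582 to 48103 in wild type and 50525 to 57180 in Nr2f6-/- with IgG2b, and to 43420 to 67595 in wild type and 60013 to 79184 in Nr2f6-/- with anti-PD-L1. Macrophage markers, of which 12 of 12 reached 3 reads in a sample of each group except Nr2f6-/- with anti-PD-L1 (11 of 12, without Arg1), summed to 16015 to 19662 in wild type with IgG2b, 9321 to 12647 in Nr2f6-/- with IgG2b, 1558 to 6587 in wild type with anti-PD-L1 and 820.02 to 2618 in Nr2f6-/- with anti-PD-L1. Melanocyte markers, from the tumor line's lineage, summed to 2579 to 4757 in wild type and 1240.1 to 2449 in Nr2f6-/- with IgG2b, without overlap, and to 2077 to 7850.1 and 799 to 4489 with anti-PD-L1. B cell, epithelial, germ cell and gastric mucosa markers summed to at most 192, 101, 41.9 and 33.9. In bulk RNA, fewer cells of a type and less RNA per cell cannot be told apart.

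Of the 10 genes, 7 code for proteins with unrelated roles. Sort1 encodes sortilin, a receptor that carries cargo between the Golgi and endosomes, and Clgn encodes calmegin, a lectin chaperone of the endoplasmic reticulum best known from testis. Utf1 encodes a chromatin factor of pluripotent cells, Tff1 a secreted peptide of the gastric mucosa, and Mrpl45 a protein of the large mitochondrial ribosomal subunit. Rufy3 encodes a RUN and FYVE domain protein known from lysosome transport and neurons. Pdpn encodes podoplanin, a membrane glycoprotein of lymphatic endothelium and stromal fibroblasts that binds CLEC-2 on platelets. 4933404O12Rik is annotated as a lincRNA. Gm24265 and Gm24497 are small nuclear RNA (snRNA) genes of the U4 and U2 type, whose products work in the spliceosome. In GRCm38 the genes not placed below lie on chr7:139943789-139945112 (Utf1), chr17:31161395-31165277 (Tff1), chr11:97315716-97329920 (Mrpl45), chr5:136919146-136937112 (4933404O12Rik), chr5:88565040-88651392 (Rufy3) and chr4:143267431-143299564 (Pdpn). Small nuclear RNAs normally carry no poly(A) tail, whereas the library kit starts from one.

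The 2 snRNA genes are shown with a close copy each, because reads from near-identical copies can be placed on either. Gm24265 (GRCm38, chr5:115489459-115489599, plus strand) lies 655 bp from Gm24407 (chr5:115490254-115490394, plus strand). Both transcripts are 141 bases long and differ at 2 bases, shown in capitals.
Gm24265: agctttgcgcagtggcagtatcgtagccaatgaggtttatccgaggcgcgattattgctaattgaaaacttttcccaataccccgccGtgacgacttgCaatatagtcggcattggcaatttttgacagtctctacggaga
Gm24407: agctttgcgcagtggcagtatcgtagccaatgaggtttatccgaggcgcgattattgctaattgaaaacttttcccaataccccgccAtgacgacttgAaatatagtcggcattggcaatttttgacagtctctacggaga
Gm24497 (chr1:72244213-72244403, plus strand) and Gm25939 (chr1:72255008-72255198, plus strand) are 191 bases long and differ at 3 bases, again in capitals.
Gm24497: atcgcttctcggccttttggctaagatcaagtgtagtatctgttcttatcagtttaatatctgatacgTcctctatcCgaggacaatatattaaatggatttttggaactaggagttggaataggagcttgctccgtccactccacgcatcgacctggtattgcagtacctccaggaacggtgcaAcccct
Gm25939: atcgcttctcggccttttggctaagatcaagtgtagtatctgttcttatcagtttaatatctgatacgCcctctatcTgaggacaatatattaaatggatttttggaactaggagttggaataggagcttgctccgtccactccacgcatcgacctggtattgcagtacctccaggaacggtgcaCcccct
Nearer copies of Gm24497 exist, with Gm23444 and Gm23472 at 1 edit and Rnu2-10, Gm23849, Gm23971 and Gm24950 at 2 edits. Of multiply mapping reads only the primary alignment was counted, so the level of a single copy is uncertain. All 4 transcripts hold ATTTTTG, a form of the site bound by Sm proteins, as do 46 of 1383 snRNA transcripts of the annotation (3.33%, plus strand of the transcript only) and 12 of the 35 snRNA genes tested.

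Sort1 was at 0 in 8 of 9 Nr2f6-/- samples over both antibodies, and Clgn was low in the Nr2f6-/- samples of the first library set. With IgG2b, Sort1 had 92.2, 278 and 151 normalized counts in the 3 wild-type samples and 0 in each of the 3 Nr2f6-/- samples. Taking the floor of 3 reads per library for the zeros, the wild-type mean of 174 ± 95.1 (SD, n = 3) was at least 55.7-fold higher. With anti-PD-L1, wild-type samples ran from 0 through a median of 67.9 to 109.65, and 5 of 6 Nr2f6-/- samples were at 0, the remaining one at 54.9. Sort1 thus had reads in 8 of 9 wild-type and 1 of 9 Nr2f6-/- samples, with 1 exception on each side. Among the 11992 genes tested, a search made after these values were seen found 3 or more reads in at least 8 of 9 wild-type samples and 0 in at least 8 of 9 Nr2f6-/- samples for 2 genes, Nr2f6 and Sort1.

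Clgn had 74.7, 102 and 144 normalized counts in wild type with IgG2b, against 0, 3.77 and 2.08 in Nr2f6-/- with IgG2b. With anti-PD-L1 the wild-type samples lay between 116 and 640.3 with a median of 227, and the Nr2f6-/- samples between 4.34 and 191 with a median of 42.2. The groups therefore separated with IgG2b and overlapped with anti-PD-L1. Within Nr2f6-/- with anti-PD-L1, the first library set gave 12.1, 4.34 and 19.4 and the second 64.9, 143 and 191, the second lying near the wild-type IgG2b level. The genotype difference, Nr2f6-/- minus wild type on the log2(normalized count + 1) scale, was -3.91 in the first set and -1.38 in the second, against -4.42 and -3.87 for Sort1. Clgn lies 12.01 Mb from Nr2f6 on chromosome 8 (GRCm38, chr8:83389867-83428552), and Sort1 is on chromosome 3 (chr3:108284082-108361511).

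Utf1, Tff1 and Mrpl45 separated the genotypes with anti-PD-L1 and overlapped with IgG2b. Melanocyte markers with anti-PD-L1 had a median sum of 3564 in wild type and 1284 in Nr2f6-/- samples. For macrophage markers the medians were 2405 and 1805, and the ranges overlapped for both lists. The part of either cell type in the anti-PD-L1 values of these genes was not tested. Utf1 had 322, 319 and 323 normalized counts in wild type with IgG2b and 315, 429 and 162 in Nr2f6-/- with IgG2b, so both genotypes expressed it there. With anti-PD-L1 the wild-type samples ranged from 63.5 through a median of 233 to 293, whereas Nr2f6-/- samples ranged from 0 through 2.50 to 25.1 with 3 of 6 at 0. The lowest wild-type sample was above the highest Nr2f6-/- sample. The 3 wild-type samples of the first set had 263 to 293, and the 3 of the second 63.5 to 203.

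Tff1 had 221, 163 and 165 normalized counts in wild type and 511, 485 and 190.5 in Nr2f6-/- with IgG2b. With anti-PD-L1 it ranged from 197 through a median of 416 to 1130.4 in wild type and from 0 through 15.2 to 60.8 in Nr2f6-/- samples, again without overlap. Mrpl45 was never at 0. Its 6 wild-type samples with anti-PD-L1 kept within 769.6 and 989 (median 885), and the 6 Nr2f6-/- samples within 152 and 498 (median 275), whereas IgG2b samples had 562, 325 and 569 in wild type and 927, 612 and 390.3 in Nr2f6-/-. This is a graded difference rather than an on-off pattern, with group means of 886 ± 80.8 and 319 ± 141 (SD, n = 6 each).

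4933404O12Rik, Rufy3 and Pdpn were low in Nr2f6-/- samples with IgG2b. Melanocyte and macrophage markers were also lower there than in wild type with IgG2b, as given above, and their part in the IgG2b values of these genes, Sort1 and Clgn was not tested. For 4933404O12Rik the wild-type samples had 391, 237 and 188 normalized counts and the Nr2f6-/- samples 1.90, 7.54 and 14.6. With anti-PD-L1 both genotypes expressed the lincRNA, at 41.8 to 347 (median 145) in wild type and 35.6 to 468 (median 305) in Nr2f6-/- samples, which overlapped widely. The low level was thus seen in 1 of the 4 groups.

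Rufy3 had 127, 43.8 and 39.8 normalized counts in wild type and 0, 0.942 and 17.7 in Nr2f6-/- with IgG2b. The order was turned with anti-PD-L1, where wild-type samples ran from 0 through 1.29 to 11.5 and Nr2f6-/- samples from 5.99 through 78.8 to 282. Only 1 wild-type sample with anti-PD-L1 reached 3 reads, against 6 of 6 Nr2f6-/- samples, although the ranges overlapped between 5.99 and 11.5.

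Pdpn was read in a single group. The 3 wild-type samples with IgG2b had 67.6, 42.7 and 71.3 normalized counts (60.6 ± 15.5, SD, n = 3), and the other 15 samples had 0. Against the floor, this mean was at least 19.4-fold higher than in Nr2f6-/- with IgG2b and at least 19.3-fold higher than in wild type with anti-PD-L1. The same pattern, 3 or more reads in every wild-type IgG2b sample and 0 elsewhere, was found after the fact for 2 of 11992 genes, Pdpn and Ppbp, which encodes a platelet chemokine. Platelet markers (Ppbp, Pf4, Itga2b, Gp1bb and Gp9) summed to 2300.4 to 2611 in wild type with IgG2b, 268 to 703 in Nr2f6-/- with IgG2b, 1.05 to 349.95 in wild type with anti-PD-L1 and 0 to 158 in Nr2f6-/- with anti-PD-L1. In wild type with IgG2b the sum rested on 2 of the 5, Pf4 (2142 to 2269) and Ppbp (77.9 to 452), with Itga2b, Gp1bb and Gp9 at 0. Itga2b and Gp1bb had reads only with anti-PD-L1, reaching 6.27 and 55.9 in wild type, unlike Pdpn. Clec1b, the gene of CLEC-2, was at 0 in every sample. Macrophage markers, like the platelet sum, were highest in the group that held the Pdpn reads, as given above. The part of platelets or macrophages in the Pdpn result was not tested. Fibroblast markers summed to 45.9 to 293 in that group and to 0 to 457.5 over the other groups, and endothelial markers to 238 to 299 and 85.6 to 429, so the ranges overlapped. The median of the fibroblast sum was 279 there, against 186 in Nr2f6-/- with IgG2b, 103 in wild type with anti-PD-L1 and 52.8 in Nr2f6-/- with anti-PD-L1.

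**Figure D1:**
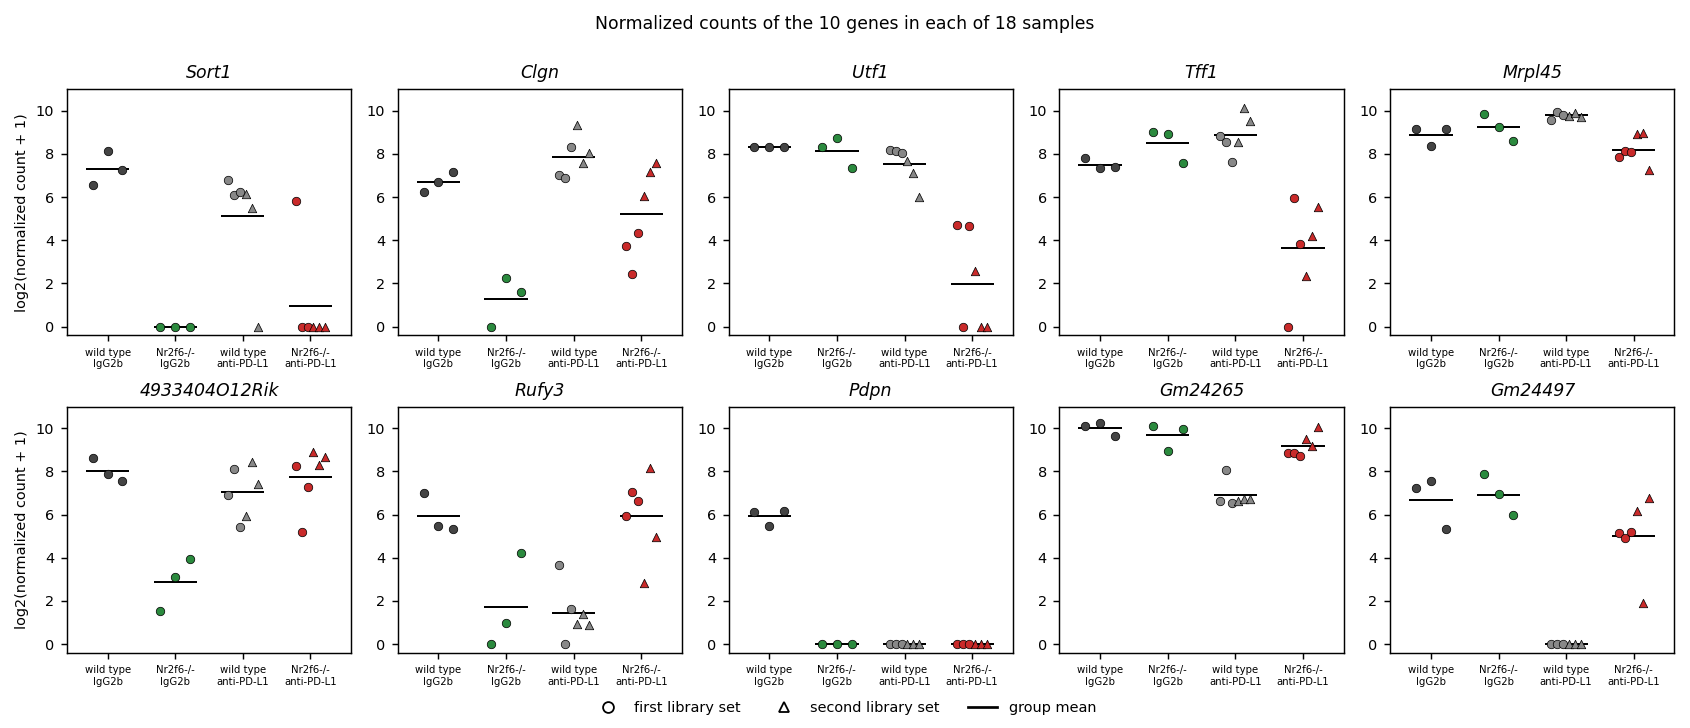
Each panel plots log2(normalized count + 1) of 1 gene on the vertical axis for the 18 samples in 4 groups, with circles for the first and triangles for the second library set and a line at the group mean of the plotted values. Pdpn is above 0 only in the 3 wild-type IgG2b samples, Gm24497 is at 0 in all 6 wild-type anti-PD-L1 samples, and the 6 Nr2f6-/- anti-PD-L1 samples of Utf1 and Tff1 lie below all other samples.

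The 2 snRNA genes were lowest in wild type with anti-PD-L1. Gm24265 had 1113, 1222 and 800.1 normalized counts in wild type and 1088, 491 and 987 in Nr2f6-/- with IgG2b. With anti-PD-L1 it ran from 91.0 through 102 to 266 in wild type and from 415 through 518 to 1059 in Nr2f6-/- samples, and these groups did not overlap. Gm24497 had 148, 184 and 38.97 in wild type and 232, 122 and 61.4 in Nr2f6-/- with IgG2b, 0 in 6 of 6 wild-type samples with anti-PD-L1, and 2.70 through 34.8 to 108 in the Nr2f6-/- samples with anti-PD-L1. Against the floor, the Nr2f6-/- mean with anti-PD-L1 (46.5 ± 37.1, SD, n = 6) was at least 14.8-fold higher than in wild type with the same antibody, and the wild-type IgG2b mean at least 39.5-fold higher. Gm24497 was the 1 gene of 11992 with 0 reads in every wild-type anti-PD-L1 sample and 3 or more in every other sample, a count made after its values were known.

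Other snRNA genes were also low in wild type with anti-PD-L1. Gm22042, Gm22068 and Rnu1a1 were likewise at 0 in all wild-type anti-PD-L1 samples, but each also had a sample at 0 in an Nr2f6-/- group. Of 1382 annotated snRNA genes in the table, 35 were tested, 33 of them besides these genes. The mean was lowest in that group for 29 of the 33, beside 2563 of all 11992 genes tested. Some of the 33, such as Gm23849 and Gm23444, passed the filter largely through their IgG2b reads, so the count of 29 is description only. The other 1380 snRNA genes together summed to 339.6 to 1209 normalized counts in wild type with anti-PD-L1, 1977 to 4642 in Nr2f6-/- with anti-PD-L1, 5133 to 8265 in wild type with IgG2b and 3142 to 13159 in Nr2f6-/- with IgG2b. With anti-PD-L1 the genotypes did not overlap in this sum in either library set, with wild type at 786 to 1209 and Nr2f6-/- at 2547 to 3806 in the first, and 339.6 to 1123 and 1977 to 4642 in the second. The genotype difference with anti-PD-L1 was above 0 for 33 of the 33 tested genes, with a median log2 difference of 2.50 beside -0.00486 over all genes, and 0 of the 33 passed the limma test, 20 of them having an unadjusted p under 0.05, as had 1167 of the 11992 genes. The near copy Gm24407 had 2.50 with an adjusted p of 0.0693 in limma, and Gm25099, the gene of the 33 with the smallest p, had 3.30 with an adjusted p of 0.0634. As these RNAs share reads with the selected genes, or resemble them, the class is not independent of the choice. Some of the 33 passed the filter partly through the Nr2f6-/- group compared. Gm22063, for example, had 10.0 to 52.9 there and 0 to 10.4 in wild type with anti-PD-L1. The genotype counts of 33 and 20 and the median are therefore description only.

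**Figure D2:**
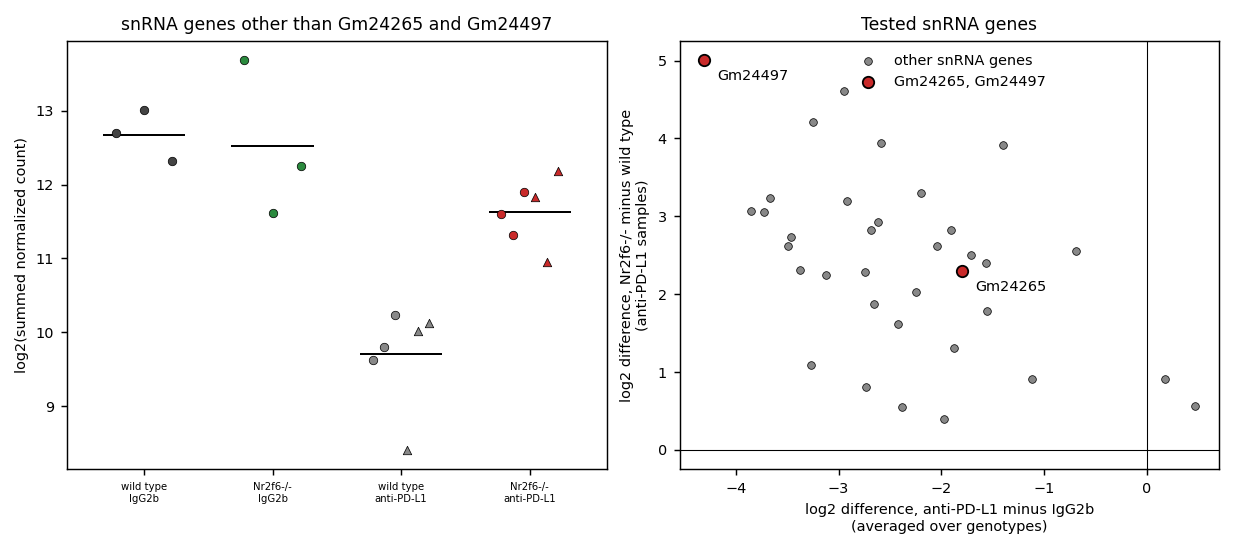
Left, log2 of the summed normalized counts of the 1380 snRNA genes other than Gm24265 and Gm24497 for each of the 18 samples (circles, first library set; triangles, second; line, group mean of the plotted values), where the 6 wild-type anti-PD-L1 samples are the lowest. Right, for each of the 35 tested snRNA genes, the log2 difference of anti-PD-L1 minus IgG2b averaged over genotypes (horizontal) and of Nr2f6-/- minus wild type with anti-PD-L1 (vertical), where all 35 points lie above 0 on the vertical axis.

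Reads were absent often enough to limit any fold change. Among the 180 values of the 10 genes in 18 samples, 37 were 0 reads, and 7 of the 10 genes had at least 1 such sample. Of all genes tested, 3476 had at least 1 sample at 0 reads and 918 had at least 9. Sort1 was at 0 in 9 samples, Pdpn in 15 and Gm24497 in 6, whereas Mrpl45, 4933404O12Rik and Gm24265 were at 0 in none. With IgG2b, 39 genes (0.325% of those tested) had 3 or more reads in each of 3 wild-type samples and 0 in each of 3 Nr2f6-/- samples, and 2 genes (0.0167%) had the opposite pattern. Sort1 and Pdpn belong to the 39, Pdpn having passed the filter only through the wild-type IgG2b reads counted here.

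The genotype contrasts chose the genes, and their values are set here beside the background without a reading. With anti-PD-L1, limma called 21 of 11992 genes (0.175%), 11 higher (0.0917%) and 10 lower (0.0834%) in Nr2f6-/- samples. Of the selected genes, 5 were among them, and edgeR, which called 22 genes from the same samples, called the same 5. Utf1 differed by -5.54 (SE 0.96), Tff1 by -5.23 (SE 0.82), Mrpl45 by -1.59 (SE 0.32), Gm24265 by 2.30 (SE 0.36) and Gm24497 by 5.00 (SE 1.09) on the log2(normalized count + 1) scale, which understates changes of low genes. These 5 are also the selected genes whose 6 and 6 samples did not overlap, beside 24 genes lower (0.2%) and 47 higher (0.392%) without overlap among all tested. Limma did not call Sort1 (-4.15), Clgn (-2.65), Rufy3 (4.50) or 4933404O12Rik (0.71). DESeq2, which called 184 genes (1.53%), called Rufy3 besides the 5 (adjusted p = 0.00144).

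These calls depended on the samples fitted. Each of the 5 was lost in limma with only the groups compared (adjusted p 0.0557 to 0.112) and in the first library set (0.0717 to 0.139). Gm24497 was called under 6 of 29 alternatives, with adjusted p-values up to 0.215, and under 1 of 18 that left out a sample. Mrpl45 was called under 19 of 29, being lost without Nr2f6-/- anti-PD-L1 replicates 1, 2, 3 or 6 or wild-type anti-PD-L1 replicates 2, 4 or 5 (adjusted p 0.0526 to 0.0798), and Utf1, Tff1 and Gm24265 under 27 of 29 each.

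With IgG2b limma called 0 genes (0%), with 641 at an unadjusted p under 0.05, edgeR called 0 and DESeq2 88 (0.734%). The DESeq2 calls included Clgn (adjusted p = 5.85e-04), Sort1 (0.0127) and 4933404O12Rik (1.17e-05). Differences were -7.31 for Sort1, -5.91 for Pdpn, -5.41 for Clgn, -5.16 for 4933404O12Rik and -4.22 for Rufy3, and between -0.35 and 0.995 for the other 5 genes. Sort1, Clgn, 4933404O12Rik and Rufy3 had no overlap between 3 and 3 samples, as had 968 genes (8.07%) in the same direction. Pdpn had none either, but it passed the filter only through its wild-type IgG2b reads and had to come out lower in Nr2f6-/-. The interaction likewise gave 0 called genes (0%) in limma, with 596 at an unadjusted p under 0.05, 0 in edgeR and 76 in DESeq2 (0.634%), the last including Tff1, 4933404O12Rik, Rufy3, Gm24265 and Gm24497. Its values ran from -6.23 for Tff1 to 8.71 for Rufy3.

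**Figure D3:**
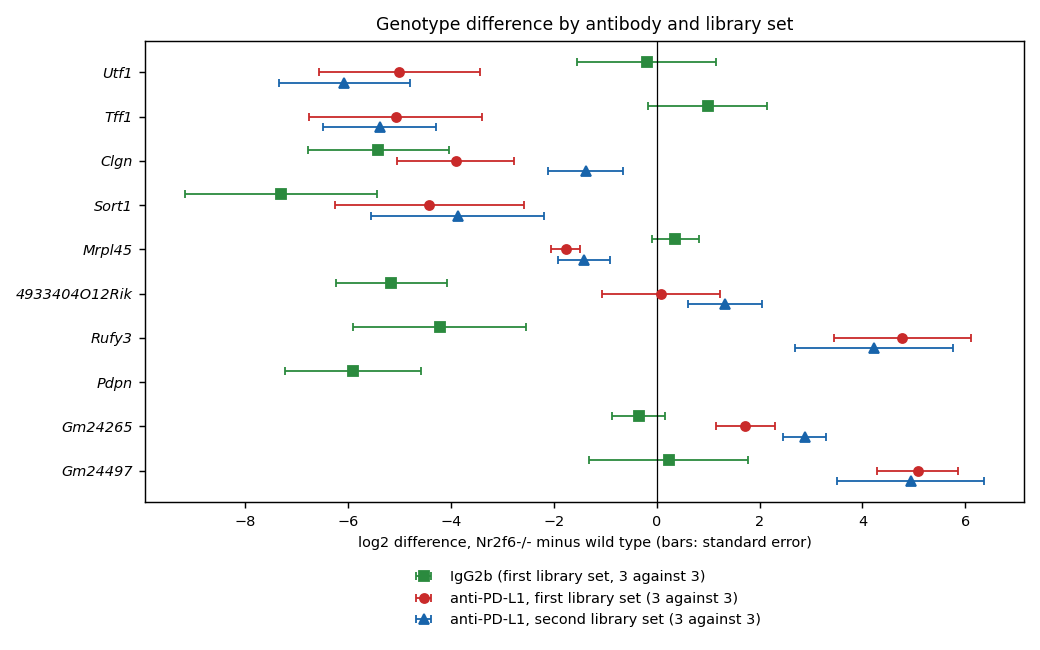
For each gene, the log2 difference of Nr2f6-/- minus wild type with its standard error, in IgG2b samples (squares), in the first library set with anti-PD-L1 (circles) and in the second (triangles), each from 3 against 3 samples; Pdpn was at 0 in all anti-PD-L1 samples and has no point there. Clgn moves from -3.91 in the first set to -1.38 in the second, and Rufy3 is at -4.22 with IgG2b and at 4.77 and 4.22 with anti-PD-L1. Standard errors with IgG2b come from the model of all 18 samples, and those of each library set from a fit to its anti-PD-L1 samples alone. Bar lengths are therefore not comparable between IgG2b and the library sets.

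The average effect of PD-L1 blockade over both genotypes was not a criterion of selection, although it uses the same samples, and a gene near 0 in 1 anti-PD-L1 group tends to a lower average. Limma called 136 of 11992 genes (1.13%) in this comparison, 24 higher (0.2%) and 112 lower (0.934%) with anti-PD-L1. Pdpn is left out here, since it passed the filter only through its reads with IgG2b and had to come out lower. Of the other 9 genes, 3 fell and 0 rose in limma. Each of the 3 was low in 1 anti-PD-L1 group, with means of 9.07 for Utf1 in Nr2f6-/-, and 0 for Gm24497 and 127 for Gm24265 in wild type. The low group that entered the selection also enters this average, so these calls are not independent of the selection. Gm24265 differed by -1.80 (SE 0.31, adjusted p = 0.00204), and it passed under 28 of 28 alternative settings. Gm24497 differed by -4.31 (SE 0.95, adjusted p = 0.0169) and Utf1 by -3.47 (SE 0.83, adjusted p = 0.0301).

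In wild type the samples of Gm24265, Gm24497, Utf1 and Rufy3 with anti-PD-L1 all lay below those with IgG2b, as did 386 genes (3.22%). Those of Mrpl45 lay above, as did 158 genes (1.32%). Pdpn also lay below, but it passed the filter only through its wild-type IgG2b reads and had to come out lower. In Nr2f6-/- mice, Utf1 and Tff1 lay below without overlap (378 genes, 3.15%), and Clgn and 4933404O12Rik above (236 genes, 1.97%).

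The Utf1 call was lost without any 1 of the 6 IgG2b samples (adjusted p 0.0568 to 0.103) and with library set as a covariate (-2.61, adjusted p = 0.248). The Gm24497 call was lost without Nr2f6-/- IgG2b replicate 1 (adjusted p = 0.0616) or wild-type IgG2b replicates 1 or 2 (0.0671 and 0.0776), and with library set as a covariate (adjusted p = 0.0718). Macrophage markers differed between antibodies in the same direction, with sums of 9321 to 19662 with IgG2b and 820.02 to 6587 with anti-PD-L1, and their part in these results was not tested.

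The remaining 6 genes did not pass in limma. Clgn differed by 2.54 (SE 0.84, adjusted p = 0.156), 4933404O12Rik by 1.95 (SE 0.66, adjusted p = 0.169) and Tff1 by -1.75 (SE 0.71, adjusted p = 0.296). DESeq2, which called 333 genes (2.78%), called the first (adjusted p = 6.83e-04) and the second (adjusted p = 0.00469) higher with anti-PD-L1. Of these, edgeR, which called 103 genes, called neither. The values of Sort1 (-0.61), Rufy3 (-0.17) and Mrpl45 (-0.07) were below their standard errors of 1.14, 1.03 and 0.28. Of the 33 other snRNA genes tested, 31 had a value below 0 with a median of -2.59, beside -0.07 for all genes. Limma called 2 of them lower, Gm22973 (-3.73, adjusted p = 0.0357) and Gm26244 (-2.62, adjusted p = 0.0485). Some of the 33, such as Gm23849 (mean 12.7) and Gm23444 (mean 11.4), passed the filter largely through their IgG2b reads and tended to a lower value. The count of 31 and the median are therefore description only.

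Library sets could be compared within anti-PD-L1 for the 9 genes with reads there. This comparison was not a criterion of selection, although it uses the same samples. Limma called 62 genes (0.517%), but 0 of the 9. At an unadjusted p under 0.05 limma had 1 of the 9, Clgn, beside 1325 of the 11992 genes tested, so nothing is read from it. Clgn was higher in the second set by 2.18 (SE 0.87, adjusted p = 0.311). DESeq2 called it (adjusted p = 0.0104, among 469 genes, 3.91%), and edgeR, which called 54 genes, did not. Sort1 (-2.21, SE 1.28) and Utf1 (-1.73, SE 0.92) had lower values in the second set, with adjusted p-values of 0.540 and 0.506.

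**Figure D4:**
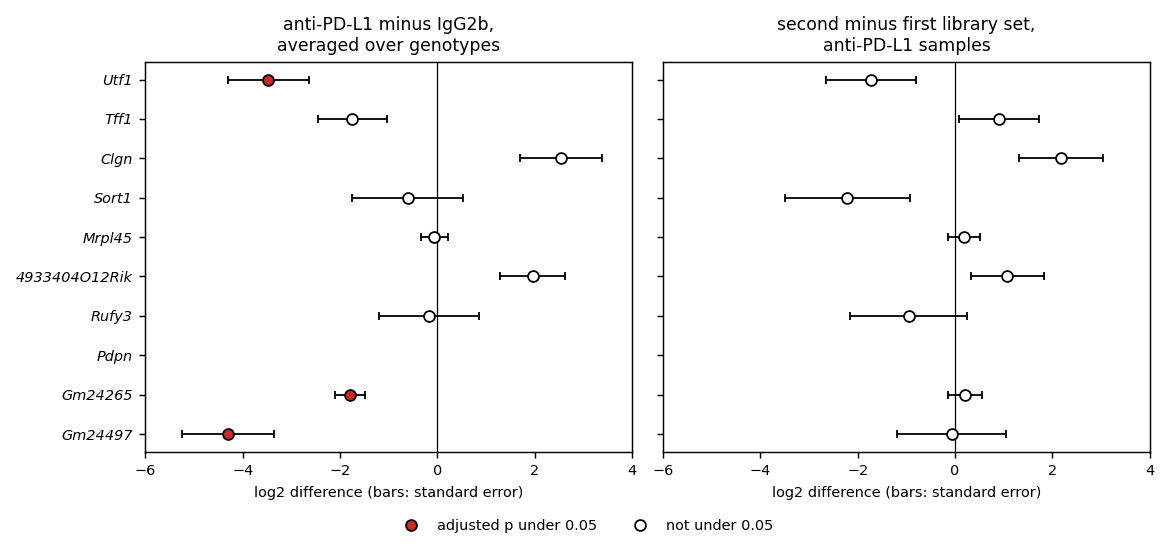
Log2 differences with standard errors for anti-PD-L1 minus IgG2b averaged over genotypes (left) and for the second minus the first library set within anti-PD-L1 (right), filled where the limma adjusted p was under 0.05. Gm24265, Gm24497 and Utf1 are filled on the left, none is filled on the right, and Pdpn is not shown.

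Relatives of the selected genes were followed through lists of their families. Of the trefoil factors Tff1, Tff2 and Tff3, 1 of 3 was tested, and Tff2 and Gkn1 of the gastric mucosa markers were at 0 in all samples. Of 12 pluripotency genes, Utf1 and Klf4 were tested. Klf4, which is also active in macrophages, fell by 4.88 with anti-PD-L1 on average (adjusted p = 0.0214, limma), and had 77.1 to 392 normalized counts over IgG2b samples and 0 to 63.4 over anti-PD-L1 samples, whereas its genotype difference with anti-PD-L1 was 1.46 (adjusted p = 0.756).

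Sorl1, the other VPS10 receptor tested of 5 in the family, had 680.3 to 2363 normalized counts, with genotype differences of 0.25 with anti-PD-L1 and -0.15 with IgG2b. For the chaperones related to Clgn, Canx (-0.31), Calr (-0.28) and Pdia3 (0.23) are the genotype differences with anti-PD-L1, and 0 of the 3 were called. Rufy1 and Rufy2 had reads in all groups and were called in 0 comparisons. Among 47 tested genes of the large mitochondrial ribosomal subunit, 1 was called between genotypes with anti-PD-L1, Mrpl45, with 15 values above and 32 below 0 and a median of -0.20 beside -0.00486 for all genes. The next by p were Mrpl43 (-0.60, adjusted p = 0.371) and Mrpl10 (-0.66, adjusted p = 0.426). Of 8 podoplanin partners 6 were tested and 0 called in any comparison, Cd44 being nearest with -0.58 for treatment (adjusted p = 0.0556).

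None of the adjacent genes tested was called between genotypes with anti-PD-L1. Scoc, 1532 bp from Clgn, had 149 to 886 normalized counts with genotype differences of -0.97 with anti-PD-L1 and -0.35 with IgG2b. Psma5 next to Sort1 (-0.30 and 0.25), Fis1 next to 4933404O12Rik (0.00299 and 0.56), and Utp3 (-0.47 and 0.13) and Grsf1 (-0.04 and 0.21) beside Rufy3 were likewise read in all samples. Kndc1, 2252 bp from Utf1, had 0 to 196 with -4.50 (adjusted p = 0.215) and -3.43, and Gm16201 on its other side 0 to 148 with -1.05 and 4.66. The antisense genes Gm15318 over Tff1 and Gm12523 over Sort1 reached at most 0.821 and 1.002 normalized counts. Gm24497 lies inside the lincRNA D230017M19Rik, which had 0 to 29.1.

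Across the 18 samples, the genes with the most similar log2 values to each were ranked by Pearson r over the 11992 genes, as a description in which all points share the 4 groups. Gm24265 and Gm24497 were each other's nearest at 0.914, followed by Gm25202 (0.897) and Gm24407 (0.873) for the former, and Gm25106 (0.895) and Rnu11 (0.895) for the latter, all snRNA genes. Pdpn was nearest to Ppbp (0.987), 1700049G17Rik (0.941) and Hes1 (0.925). Sort1 had Fam195a (0.858), Clec4d (0.823) and Nr2f6 (0.795), the gene deleted in the knockout.

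Utf1 was nearest to Dab2 (0.858), Tcf4 (0.849) and Tpd52 (0.836), and Tff1 to Itgb3 (0.798), Slc25a26 (0.787) and Adam8 (0.782). For Mrpl45 these were Pomk (0.893), Il18r1 (0.799) and Pgam1 (0.781), and for Rufy3 Arhgdib (0.857), Pyhin1 (0.823) and Gm10184 (0.818). Clgn was followed by Rplp1 (0.856), Dazap1 (0.850) and Lman2 (0.835), and 4933404O12Rik by Ebp (0.773), Nsmce4a (0.770) and 1110002L01Rik (0.765). Apart from the snRNA pair, the highest values between selected genes were 0.689 for Tff1 with Mrpl45 and 0.682 for Clgn with 4933404O12Rik, and the lowest was -0.709 for Mrpl45 with Rufy3.

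The half-site AGGTCA, recognised by nuclear receptors such as Nr2f6, was searched on both strands in promoter windows from RefSeq (GRCm38.p6), 250 bases before to 50 after the start. Windows were at hand for 5 of the 10 genes (Utf1, Mrpl45, 4933404O12Rik, Pdpn and, with 2 starts, Rufy3). The letters occurred in 1 of these 6 windows, that of Pdpn, and in 5340 of 32851 windows overall (16.3%). The Pdpn window (chr4:143299515-143299814, minus strand) is shown with the match in capitals, beginning 34 bases before the start.
Pdpn: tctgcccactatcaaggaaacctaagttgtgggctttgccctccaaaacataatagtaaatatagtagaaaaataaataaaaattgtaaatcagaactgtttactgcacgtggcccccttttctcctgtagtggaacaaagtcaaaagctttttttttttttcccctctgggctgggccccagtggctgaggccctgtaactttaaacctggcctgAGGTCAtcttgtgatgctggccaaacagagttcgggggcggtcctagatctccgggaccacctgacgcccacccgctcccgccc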

How the data were processed

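Per the methods, reads were trimmed (Cutadapt, Trimmomatic) and aligned to mm10, first by STAR and for the remainder by Bowtie2, multiply mapping reads were counted at their primary position, and HTSeq gave gene counts. The authors deposited signal values, read counts divided by 1 size factor per sample. Annotation and strand setting are not given in the sources used here, so overlapping and antisense genes are uncertain. Dividing each column by its step gave whole reads (within 0.1) for 100% of values. Floors cover counting error only.

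Genotype, treatment and replicate came from the labels. Because the deposited values are no counts, limma 3.58.1 (R 4.3.3, eBayes with trend, two-sided, Benjamini-Hochberg, threshold 0.05) was run on log2(normalized count + 1) over genes with a mean of at least 10, in 1 model of 18 samples and 4 groups (6 groups for library set). edgeR 4.0.16 and DESeq2 1.42.0 on whole reads, other pseudocounts, filters and scaling, library set as a covariate, the replicate block and leaving out each sample were alternatives. The fit was tested on simulated data. An exact test for genes under the filter was planned, and 0 needed it.

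Named genes were the 10 selected, Nr2f6, adjacent or overlapping genes, the 3 with the highest r for each, and family and marker lists, of which the 3 smallest p-values were named for lists over 10 genes. Genes and lists were chosen with earlier results of these data known. Counts of on-off patterns were added after the values were seen, as were the genes named from them. Positions are from GENCODE vM21 (GRCm38), matched by symbol for 34114 of 37236 genes.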

Additional observations from a re-analysis of the deposited data

Results flagged for a closer look

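Among 17 groups of 6 samples examined on the log2(normalized count + 1) scale, 3 had a sample far from the others relative to the range of the group. The rate of about 1 in 20 given by chance need not hold for genes chosen for zeros and on-off differences, so nothing is read from this count. Sort1 had 0 normalized counts in wild type with anti-PD-L1 replicate 6, against 43.5 to 109.65 in the other 5 samples. It had 54.9 in Nr2f6-/- with anti-PD-L1 replicate 1, the other 5 being at 0. Gm24265 had 266 in wild type with anti-PD-L1 replicate 2, while the other 5 samples lay between 91.0 and 105.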

How the results depend on the processing

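For treatment averaged over genotypes, the 136 called genes became 211 with a pseudocount of 10, 88 without the filter, 69 with library set as a covariate and 333 with DESeq2, and 55 to 165 when leaving out 1 sample (59, 55 and 62 without wild-type IgG2b replicates 1, 2 and 3, and 65, 79 and 85 without the Nr2f6-/- ones). The replicate block gave 69. Samples with the same replicate number did not visibly deviate together (r -0.0292 to 0.0366 over 21 pairs, beside -0.0458 to 0.0632 over 96 pairs with different numbers). A weak shared effect could go unseen in this check, so it does not settle whether the numbers pair samples. For library set, 62 became 11 without the filter, 1 with only the groups compared, 469 with DESeq2, and 20 to 120 when leaving out 1 sample. For genotype with anti-PD-L1, 21 became 9 without the filter, 4 with only the groups compared, 34 in the first library set, 184 with DESeq2, and 9 to 27 when leaving out 1 sample (9 without Nr2f6-/- replicate 2). For genotype with IgG2b, 0 became 1 with a pseudocount of 10, 14 without the filter, 88 with DESeq2, and 0 to 1 when leaving out 1 sample. The interaction gave 5 without the filter, 76 with DESeq2 and 0 in each leave-one-out fit.

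Among single genes, the treatment value of Sort1 turned from -0.61 to 0.49 with library set as a covariate, in the first library set or with the replicate block, 2.39 in edgeR and 2.07 in DESeq2. That of Rufy3 turned from -0.17 to 0.31 under the same 3 settings, and ran from -0.60 to 0.46 over all settings. Leaving out 1 sample moved Mrpl45 within -0.23 to 0.086 (above 0 without Nr2f6-/- IgG2b replicate 1, wild-type IgG2b replicate 3 or Nr2f6-/- anti-PD-L1 replicate 6), and Rufy3 to 0.46, 0.095 or 0.14 without Nr2f6-/- IgG2b replicate 3, wild-type IgG2b replicate 1 or Nr2f6-/- anti-PD-L1 replicate 4. For library set, Gm24497 turned from -0.07 to 0.10 with a pseudocount of 10, 0.43 in edgeR, 0.31 in DESeq2, and ran from -0.53 to 0.69 when leaving out 1 sample (0.69 without Nr2f6-/- anti-PD-L1 replicate 5). The causes were not tested. The Utf1 and Gm24497 treatment calls were also lost with the replicate block (adjusted p = 0.277 and 0.0932) and without the filter (0.0581 and 0.0540), and the former in the first set alone (0.149).

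With 3 IgG2b samples a genotype, values of 3 reads or fewer and near-identical snRNA copies, levels of single low genes are not well fixed.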

Other observations

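Small nucleolar RNAs, a class chosen after the snRNA values were seen, were summed in the same way. Their 1466 annotated genes summed to 1427 to 4463 normalized counts in wild type with anti-PD-L1, 3457 to 9199 in Nr2f6-/- with anti-PD-L1, 4732 to 5944 in wild type with IgG2b and 3373 to 7045 in Nr2f6-/- with IgG2b, so that all groups but wild type with the 2 antibodies overlapped.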
